A study of Bos taurus with 8 samples.

Results

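Epidermal-type keratins of rumen epithelium, from the basal to the suprabasal layers, were compared between the diets in 4 Holstein bulls. The genes asked for were 10: KRT5, KRT14, KRT15 and KRT17, taken here as the basal group, and KRT1, KRT10, KRT4, KRT13, KRT36 and KRT78, taken as the suprabasal group. A gene was found by its name on the bovine Agilent array, which had 15008 probes. Of the 10 genes, 8 had a probe under their name, with 1 probe each, and 7 of these passed the filter on dim probes and were tested. KRT4 did not pass it, and KRT1 and KRT13 were not analysed here.

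The bulls carried a rumen fistula and were 7.4 ± 0.3 months of age. Each received both diets for 14 days, one after the other, with no wash-out between them. The control diet was a high-grain diet with corn flakes, and in the wood kraft pulp (WP) diet the pulp replaced 50% of the corn flakes. Of 5 bulls in the study, the calves numbered 21, 23, 24 and 25 gave the 8 arrays, 1 per calf and diet. Both diets were thus high in grain, no forage-fed group was used here, and which diet a calf received first is not stated in the sources used here.

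Keratins build the intermediate filaments of epithelial cells, and each filament needs a type I keratin paired with a type II keratin. In stratified epithelium the basal cells that sit on the basement membrane make KRT5 with KRT14, and cells that leave this layer switch to other pairs. In skin the suprabasal pair is KRT1 with KRT10, and in the wet lining of mouth and oesophagus it is KRT4 with KRT13. The rumen is lined by a keratinised stratified squamous epithelium, which is the barrier between the fermenting contents and the blood.

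A level below is log2 of the processed signal minus the array's own 75th percentile, so that 0 is the brightness of a probe at that percentile. Levels of different probes are not set against each other, because each probe binds its target with its own strength. The tissue was measured in bulk: fewer cells of a type and less RNA per cell cannot be told apart. Each array had 9314 to 11917 probes well above background and no saturated spot. All 8 markers of stratified epithelium fixed for this check (KRT5, KRT14, KRT15, TP63, DSP, PKP1, PERP and CDH1) were above background on all 8 arrays, as were 4 of 5 markers of simple epithelium, 6 of 7 of endothelium, 7 of 9 of fibroblasts and 1 of 5 of melanocytes. KRT20 of simple epithelium, CDH5 of endothelium and MLANA, TYR, DCT and TYRP1 of melanocytes were so on no array.

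The WP array of calf 24 stood apart from the rest. Its spots for the viral E1A sequence, an array control, read 40.7 against 1.36 to 1.97 elsewhere, and its negative control spots had a median of 4.06 against 1.20 to 1.90. The 8 arrays lay in 2 rows of 1 slide. Row 1 held the WP arrays of calves 21 and 23 and the control arrays of calves 24 and 25, and row 2 held the other arrays. A difference between the rows is therefore the same number as a diet difference that runs opposite ways in calves 21 and 23 and in calves 24 and 25, and these cannot be told apart here.

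The probes are 60 bases long, and keratin genes resemble each other, so the sequences that decide which transcripts a probe can bind are shown. The pair below holds the probes of the basal type I keratins KRT14 (chr19:42430195-42430226 of UMD 3.1, minus strand) and KRT17 (chr19:42473916-42474594, minus strand), whose levels correlated across the arrays. Capitals mark bases that both share when laid side by side without gaps. Positions are those of the array design, which places only part of the KRT14 probe and spreads the KRT17 probe over a wider stretch.
KRT14: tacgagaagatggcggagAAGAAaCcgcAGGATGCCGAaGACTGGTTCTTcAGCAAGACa
KRT17: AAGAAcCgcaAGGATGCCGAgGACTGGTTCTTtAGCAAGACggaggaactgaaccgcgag

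These probes share 35 of 42 aligned bases. The design lists 2 RefSeq transcripts for the KRT17 probe, that of KRT17 and that of KRT14, and 1 for the KRT14 probe.
Among the 47 keratin probes of the array, 4 of the 1081 pairs shared at least 35 bases, and the median pair shared 20. Whether a probe bound another keratin's transcript was not tested, and the levels of these genes are uncertain to that extent. The probes of KRT15 (chr19:42358472-42358531, minus strand), a basal keratin that did not follow KRT14, and of the suprabasal KRT10 (chr19:41665013-41665072, minus strand) are given whole. Of the probe of KRT5 (chr5:27547217-27547276, plus strand) and that of KRT36 (chr19:42325914-42325972, minus strand) the first 30 bases are given.
KRT15: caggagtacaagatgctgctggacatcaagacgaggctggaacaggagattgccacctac
KRT10: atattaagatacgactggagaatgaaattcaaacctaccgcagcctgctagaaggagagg
KRT5: tcggaagagcttcaagagctaagagcctgc
KRT36: gtgtaaaactaagcttccctggaaatttac

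None of the 7 keratins tested passed the adjusted test between the diets (limma with calf as a block, Benjamini-Hochberg over 10236 probes, threshold 0.05), where 0% of all probes tested passed. At an unadjusted p under 0.05, none of the 7 passed, against 6.99% of all probes (715 probes). The fitted difference (WP minus control) was negative for 5 and positive for 2 members, with a median of -0.35 beside 0.09 over all probes, of which 35.6% were negative. No member went the same way in all 4 calves, which 12% of all probes did upward and 5.41% downward. The diets overlapped for every member tested, whereas they did not for 4.86% of all probes (3.67% with WP above control and 1.19% with WP below). The filter passed 7 of the 8 genes with a probe, so these counts leave KRT4 out.

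KRT5, the type II keratin of basal cells, had control levels of 6.25, 6.69, 6.94 and 6.81 in calves 21, 23, 24 and 25, and WP levels of 6.85, 7.20, 6.36 and 6.18. The diets overlapped throughout: calves 21 and 23 were higher on WP by 0.60 and 0.51, and calves 24 and 25 were lower, at -0.58 and -0.63. The mean difference was -0.02 ± 0.67 (SD, n = 4), with a 95% interval of the fit from -0.73 to 0.68 and a limma adjusted p of 0.981. Without calf 24 the value was 0.16, and without calf 25 it was 0.18.

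KRT14, the type I partner of KRT5, read 5.76, 5.35, 5.84 and 5.74 on the control diet and 5.25, 5.53, 4.92 and 5.01 on WP. It was lower on WP in calves 21, 24 and 25 and higher in calf 23, where the control array was the dimmest of the 4. The WP level of calf 23 lay within the range of the control arrays. The mean difference was -0.49 ± 0.48 (SD, n = 4), 1.41-fold, with a 95% interval from -1.03 to 0.05 and a limma adjusted p of 0.658.

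KRT17, a type I keratin known from skin appendages and from wounded epidermis, followed KRT14. Its control levels lay close together at 7.13, 6.95, 6.94 and 7.05, and its WP levels were 6.57, 7.02, 6.49 and 6.59. Calves 21, 24 and 25 read below every control array on WP, and calf 23 did not. The difference was -0.35 ± 0.28 (SD, n = 4), 1.27-fold, with a 95% interval from -0.73 to 0.04 and a limma adjusted p of 0.658. Over the 8 arrays the levels of KRT14 and KRT17 had a Pearson r of 0.88, a description of arrays that share a scan and a scaling, and of probes that share the bases shown above.

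KRT15, a type I keratin of basal cells, did not follow that pattern. Its control levels were 5.84, 6.59, 6.63 and 6.68 and its WP levels 6.58, 6.95, 6.49 and 6.42. Calves 21 and 23 were higher on WP, by 0.74 and 0.36, and calves 24 and 25 lower, at -0.14 and -0.26, the order seen for KRT5. The difference was 0.18 ± 0.46 (SD, n = 4) with a limma adjusted p of 0.782, and -0.01 without calf 21, whose control array was the dimmest of the 8. KRT15 and KRT5 had a Pearson r of 0.79 over the 8 arrays.

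**Figure D1:**
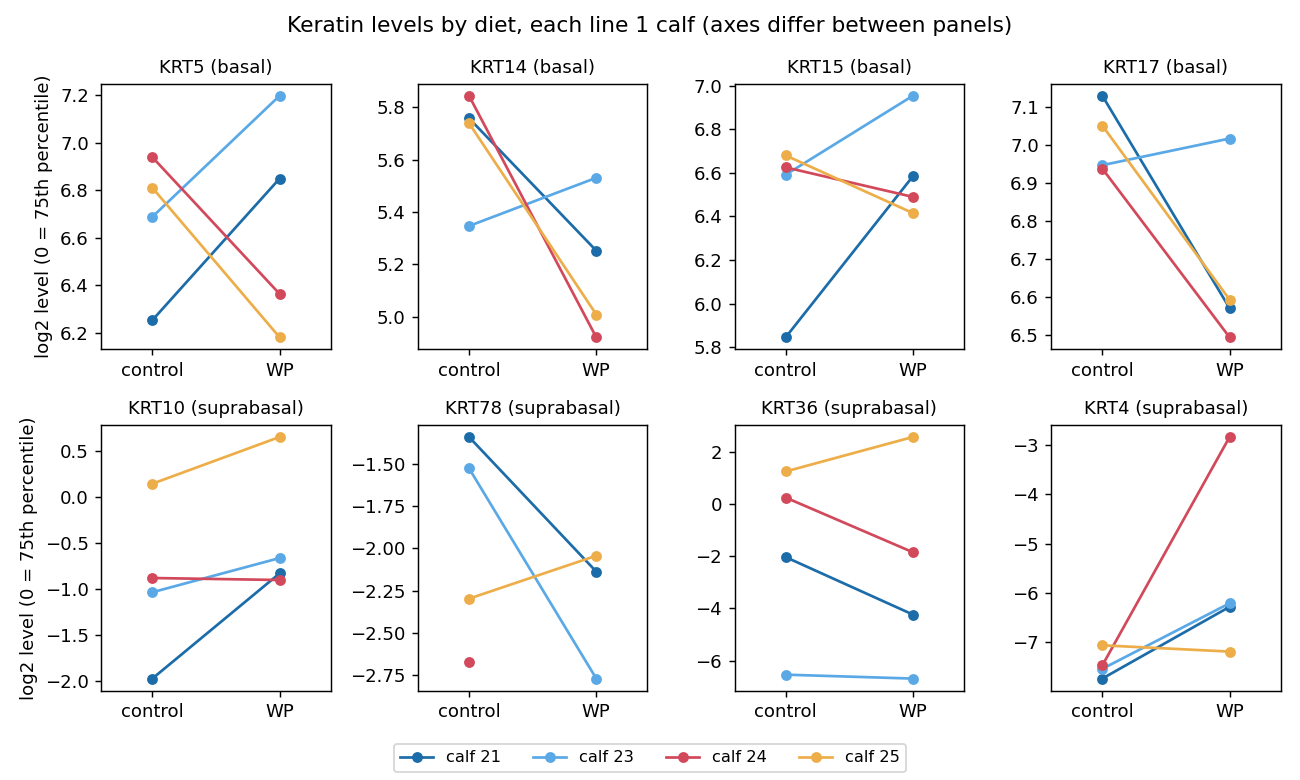
Levels of the 8 keratins with a probe (vertical axes, log2 relative to the array's 75th percentile, which differ between panels) on the control and WP diets, with 1 line per calf. KRT5 and KRT15 cross between calves 21 and 23 and calves 24 and 25, KRT14 and KRT17 are lower on WP in every calf but 23, and KRT36 is ordered by calf. All KRT4 points but the WP array of calf 24, and both KRT36 points of calf 23, were not well above background. KRT78 has no WP point for calf 24.

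Set against its partner, KRT5 read higher relative to KRT14 on WP in each calf: the difference of their diet differences was 1.1, 0.33, 0.35 and 0.10 in calves 21, 23, 24 and 25, a mean of 0.47 ± 0.44 (SD, n = 4). KRT15 relative to KRT17 gave 1.30, 0.29, 0.31 and 0.19, a mean of 0.52 ± 0.52 (SD, n = 4). All 4 calves were positive in both pairs, as they were for KRT15 relative to KRT14. KRT10 relative to KRT5 was positive in 3 of 4 calves, and KRT14 relative to KRT17 in 2 of 4. The pairs are not separate observations, since KRT14 correlated with KRT17 and KRT5 with KRT15. The mean rests in large part on calf 21, and these pairs were chosen after their values were seen, so no test is given.

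KRT10, the type I keratin of the first suprabasal layers of skin, read -1.97, -1.03, -0.88 and 0.14 on the control diet and -0.83, -0.66, -0.90 and 0.65 on WP. Calf 25 was the brightest on both diets, and the diets overlapped. The WP minus control values of 1.14, 0.37, -0.02 and 0.51 were positive in 3 of 4 calves, with a mean of 0.50 ± 0.48 (SD, n = 4), a 95% interval from -0.04 to 1.04 and a limma adjusted p of 0.658. Within slide row 1 alone the value was -0.38. There the WP arrays of calves 21 and 23 stand against the control arrays of calves 24 and 25. That value thus holds the difference between calves as well.

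KRT78, a type II keratin of stratified epithelium, read -1.34, -1.53, -2.67 and -2.30 on the control diet. On WP it read -2.14, -2.77 and -2.04 in calves 21, 23 and 25. The spot of calf 24 on WP carried an outlier flag and was left out, so the fit rests on 3 within-calf differences of -0.80, -1.24 and 0.25. Their mean was -0.59 ± 0.77 (SD, n = 3) with a limma adjusted p of 0.664. The diets overlapped, and with the authors' deposited table, which has a value for that spot, the difference was 0.22.

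KRT36, a type I keratin of the hard, hair type that is also known from the papillae of the tongue, spread over a wider range between calves than between diets. On the control diet it read -2.03, -6.54, 0.25 and 1.25 in calves 21, 23, 24 and 25, and on WP -4.23, -6.69, -1.85 and 2.57. Both arrays of calf 23 were not well above background. Calf 25 was the brightest and calf 23 the dimmest on either diet, with calf 24 above calf 21 on both. The diet difference was -0.78 ± 1.69 (SD, n = 4), limma adjusted p = 0.708, with -2.20 and -2.10 in calves 21 and 24 and 1.32 in calf 25. Leaving out 1 calf at a time moved it between -1.48 and -0.31. Within slide row 1 it was -6.21, and within row 2 it was 4.65. Within a row the WP and control arrays come from different calves, so both values hold the difference between calves as well.

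The means of the calves, over both diets, were -3.13 for calf 21, -6.61 for calf 23, -0.80 for calf 24 and 1.91 for calf 25. Because the probe of calf 23 has only a bound, calf 25 was at least 125-fold brighter than calf 23. This bound sets the mean of both arrays of calf 25 against the lowest signal among probes well above background on the arrays of calf 23. Over calves 21, 24 and 25, in which KRT36 was measured above background on all 6 arrays, the range of the calf means was 5.04. This ranked 2 among 9135 probes above background on these arrays, for which the median range was 0.30. KRT10 had the next widest range of the members, 1.80 (rank 50), and KRT14 the narrowest, 0.13. These ranges were chosen after the data were seen and are descriptions with no test.

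With 2 arrays per calf, each from another diet period, this spread holds the animal, the biopsy and the array together. Both arrays of a calf also lay in the same slide column, and each calf had its own column. A difference between calves and a difference between slide columns therefore cannot be told apart. With normexp background correction the range of KRT36 was 3.41 (rank 4), and with quantile or cyclic loess scaling or the authors' deposited table it ranked 2. Over calves 21 and 24 alone it was 2.34 (rank 10) and over calves 24 and 25 alone 2.71 (rank 4). The range of KRT10 was 0.51 (rank 1238) over calves 21 and 24, so it rests on calf 25.

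**Figure D2:**
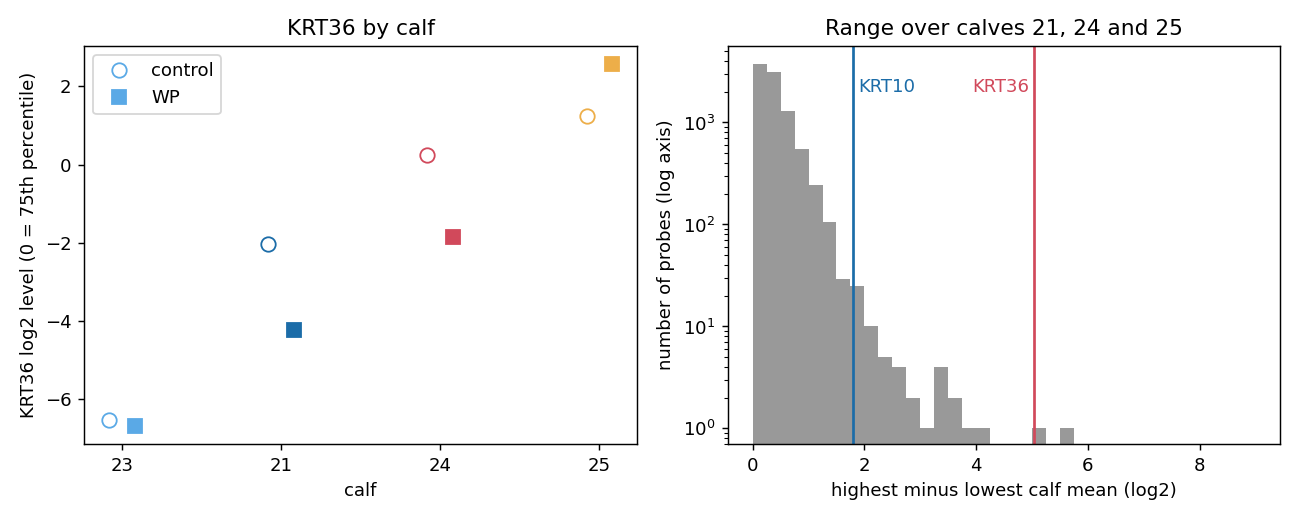
Left, KRT36 level (log2 relative to the array's 75th percentile) of each array by calf, with open circles for control and filled squares for WP; the calves stand in the same order on both diets, from calf 23 to calf 25. The points of calf 23 were not well above background. Right, the number of probes (log axis) by the range between the highest and the lowest mean of calves 21, 24 and 25 (log2), over probes above background on their 6 arrays, with vertical lines at 1.80 for KRT10 and 5.04 for KRT36.

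KRT4, the type II suprabasal keratin of wet epithelia, was well above background on 1 array, the WP array of calf 24, where it read -2.83. On the other 7 arrays it read between -7.74 and -6.21, and no fold or test is given. The same array carried the raised control spots. Of the 23 other keratins that were not tested, 10 were above background on no array, 11 on 1 array, which was the WP array of calf 24 in all 11, and 2 on 2 or 3 arrays. In 20 of these 23 the WP array of calf 24 was the brightest. The part of that array in the KRT4 reading was not tested further.

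For the basal and suprabasal groups, each tested member was centred on its own mean and the median over members was taken on each array. The WP minus control values of the basal median were 0.00, 0.25, -0.51 and -0.52 in calves 21, 23, 24 and 25, a mean of -0.19 ± 0.39 (SD, n = 4). Those of the suprabasal median were -0.27, -0.31, 0.24 and 0.51, a mean of 0.04 ± 0.40 (SD, n = 4). The suprabasal minus basal difference thus gave WP minus control values of -0.27, -0.56, 0.76 and 1.02, a mean of 0.24 ± 0.77 (SD, n = 4). It was negative in calves 21 and 23 and positive in calf 25, so no shift between the layers common to these calves was seen. The value of calf 24 does not compare the same members on both diets, as given below. The row 1 minus row 2 value of -0.65 was larger in size than the diet value, and both hold calf 24. With the mean over members in place of the median, the diet value was -0.02. KRT78 had no WP value in calf 24, so the suprabasal median of that array was over KRT10 and KRT36 alone. Both were lower on WP in calf 24, at -0.02 and -2.10, so the positive values of that calf rest on the change of members. In calf 23 the suprabasal median also holds KRT36 values that were not well above background.

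Between the slide rows, KRT5, and KRT78 on its 7 arrays, did not overlap. KRT5 lay between 6.81 and 7.20 on the row 1 arrays and between 6.18 and 6.69 on the row 2 arrays, a fitted difference of 0.58 (SE 0.10), 1.49-fold. The limma adjusted p was 0.285 (unadjusted p = 0.0042), and leaving out 1 calf at a time kept the difference between 0.56 and 0.60. KRT78 ran the other way, from -2.77 to -2.14 in row 1 and from -2.04 to -1.34 in row 2, with a difference of -0.64 (SE 0.18) and an adjusted p of 0.360.

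Non-overlapping rows were thus found for 2 of the 7 members tested, against 6.93% of all probes (3.35% with row 1 above, as for KRT5, and 3.57% with row 1 below, as for KRT78). An unadjusted p under 0.05 between rows was found for 3 of 7 (KRT5, KRT15 and KRT78), against 12.9%, and 0% of all probes passed the adjusted threshold. KRT15 differed by 0.38 (SE 0.12) with an adjusted p of 0.357, and its rows overlapped only through the control array of calf 23 at 6.59. KRT14 differed by 0.33 with an adjusted p of 0.457 and KRT17 by 0.10 with an adjusted p of 0.784. The diet difference ran opposite ways in the calf pairs for KRT5 and KRT15, as it did for 21.1% of all probes.

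Marker lists of cell types were read by row as well. The summed level of the macrophage and dendritic cell markers lay between 1.63 and 1.83 in row 1 and between 2.03 and 3.13 in row 2, with 4 of 7 markers above background on all 8 arrays and ITGAM on none. The fibroblast markers (7 of 9 on all arrays) ranged from 3.30 to 4.31 in row 1 and, overlapping with it, from 3.74 to 5.42 in row 2. The stratified epithelium markers, which hold 3 of the basal keratins, ranged from 8.41 to 8.61 and from 8.07 to 8.35. In a sum of signal the brightest probes weigh most. The other members of this list were split, with row 1 minus row 2 at 0.32 for TP63, 0.22 for DSP and 0.11 for PERP. It was -0.27 for PKP1 and -0.23 for CDH1. The T and NK cell markers ranged from -1.25 to -0.39 and from -0.80 to 0.71, and the marker lists not named here overlapped between the rows as well. Of all probes, 6.93% did not overlap between the rows. The macrophage markers tested differed in size. Row 1 minus row 2 was -1.36 for AIF1, -0.93 for CSF1R, -0.53 for CD68, -0.50 for FLT3 and -0.02 for CD14. The part of these cell types in the keratin values was not tested.

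**Figure D3:**
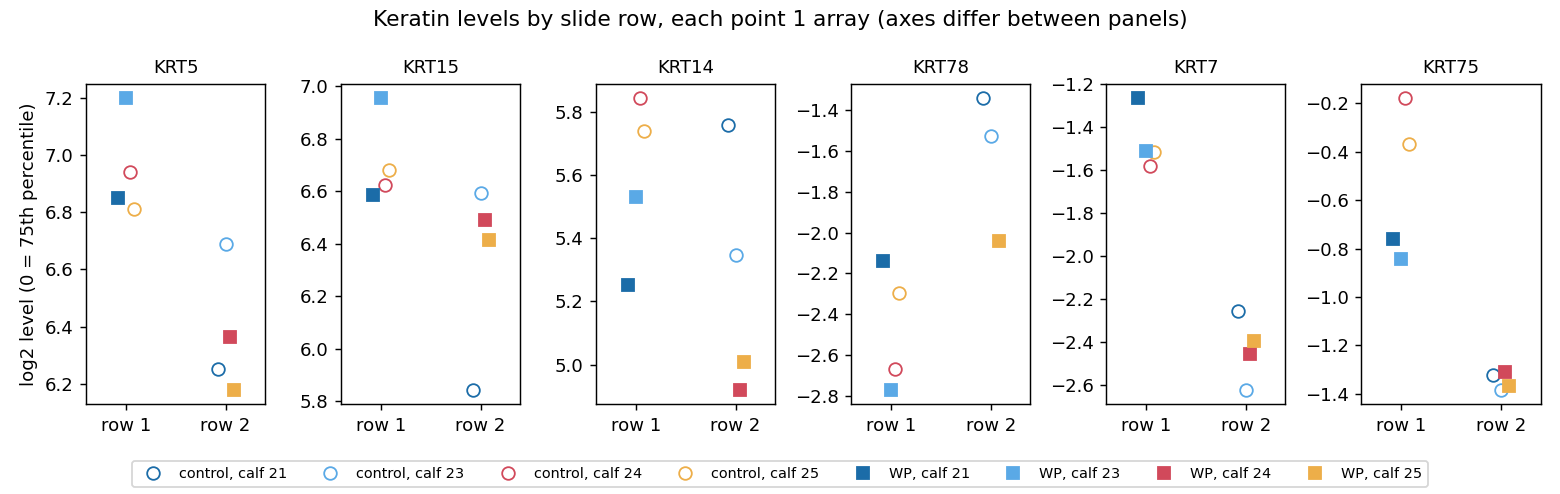
Levels (log2 relative to the array's 75th percentile, axes differ between panels) of 6 keratins on the arrays of slide row 1 and row 2, with open circles for control, filled squares for WP and 1 colour per calf. KRT5, KRT7 and KRT75 lie higher in row 1 and KRT78 lower, each without overlap, while the KRT14 rows overlap.

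Of the 39 other keratin genes with a probe, 16 were tested. None passed the adjusted or the unadjusted threshold between the diets. The difference was negative for 10 and positive for 6, with a median of -0.05 and a range from -0.85 (KRT24) to 0.59 (KRT18). KRT6A and KRT3 were lower on WP in 4 of 4 calves, 2 of 16 against 5.41% of all probes. KRT6A, a type II keratin of activated and wounded epidermis and a partner of KRT17, read 8.17, 8.25, 8.11 and 8.21 on the control diet and 7.56, 8.23, 7.64 and 8.07 on WP, and calf 23 was nearly level. Its difference was -0.31 ± 0.28 (SD, n = 4) with a limma adjusted p of 0.658. It was called neither here nor in the alternatives run.

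KRT6C, its close relative, gave -0.30 ± 0.33 (SD, n = 4) and, like KRT17 and KRT14, was higher on WP in calf 23 alone. Over the 8 arrays KRT6A had a Pearson r of 0.94 with KRT6C and 0.83 with KRT17. KRT6B gave -0.06 ± 0.22 (SD, n = 4). The keratins of simple epithelium gave 0.04 for KRT8, 0.59 for KRT18 and 0.05 for KRT19, with the highest value of KRT18, 1.57, in calf 24. KRT35 gave 0.23, KRT79 0.04, KRT81 -0.16 and KRT85 -0.05. KRT80 was above background on 4 control arrays and 2 WP arrays, and KRT24 on 3 control arrays and on 1 WP array, that of calf 24. Their differences, -0.59 and -0.85, were thus taken partly against values at background and are not exact.

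Of these 16, KRT7, KRT75 and KRT86 did not overlap between the rows, against 6.93% of all probes. KRT7, a type II keratin of simple epithelium, read -2.26, -2.62, -1.58 and -1.52 on the control diet and -1.27, -1.51, -2.46 and -2.40 on WP. Each row 1 array was above each row 2 array, by 0.96 in the fit (SE 0.10, limma adjusted p = 0.255). KRT75, known from the hair follicle, differed by 0.81 with an adjusted p of 0.255, and the hair keratin KRT86 by 0.68 with an adjusted p of 0.260. With normexp background correction their row differences were smaller, 0.56, 0.55 and 0.65, with adjusted p of 0.046, 0.048 and 0.034, and 0.899% of all probes passed the adjusted threshold there. KRT24 had the largest row difference of the 16, -1.71 (adjusted p = 0.255), partly from values at background, and -0.04 with normexp.

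KRT86 had a Pearson r of 0.98 with KRT5 over the 8 arrays, the highest of any pair of tested keratins. Whether the KRT86 probe bound the transcript of another keratin was not tested, so its level, row difference and correlation are uncertain to that extent. Other genes whose levels most resembled the mean of the basal keratins were STARD10 (r = 0.97), ACRBP (r = 0.96) and TPD52 (r = 0.95), out of 9704 named genes over 8 arrays. Those most like the mean of the suprabasal keratins, in which KRT36 weighs most, were COG4 (r = 0.95), MED20 (r = 0.93) and LSM6 (r = 0.93).

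**Figure D4:**
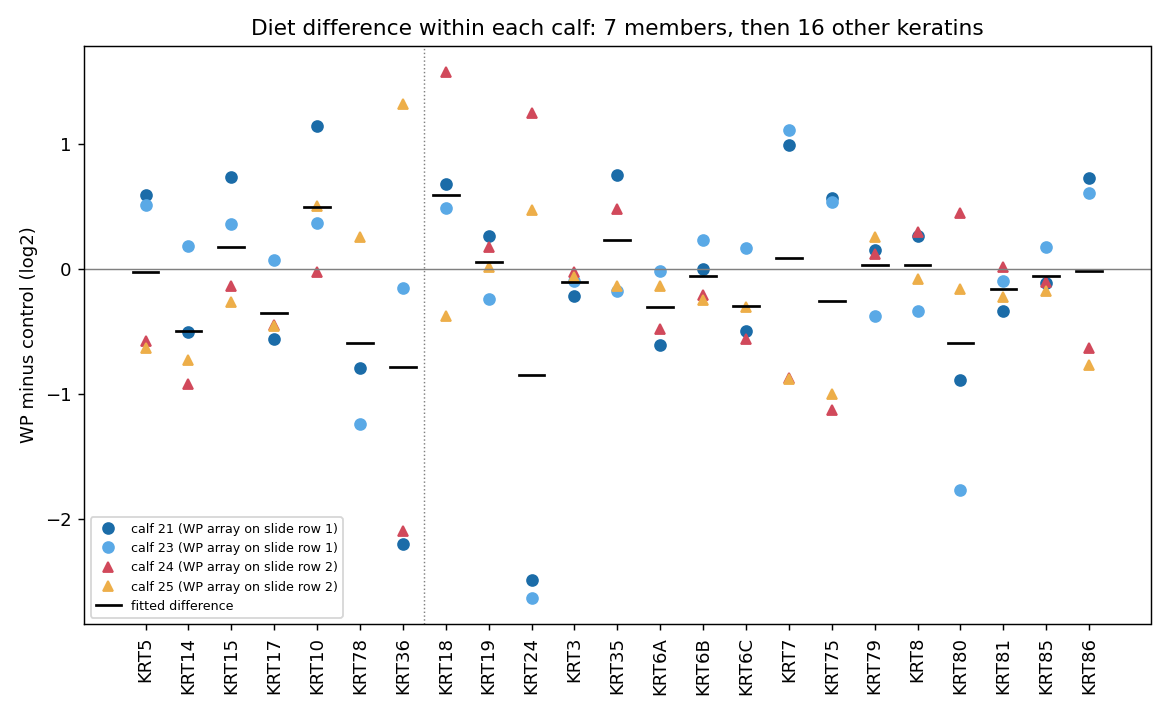
WP minus control (log2) of the 7 keratins tested, left of the dotted line, and of 16 other keratins, with 1 symbol per calf and a black bar for the fitted difference. Circles mark calves 21 and 23, whose WP arrays lay in slide row 1, and triangles calves 24 and 25; for KRT5, KRT15, KRT7, KRT75 and KRT86 all circles lie above 0 and all triangles below it.

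Genes with roles around the keratins were read from lists. In bulk tissue their signal can come from other cells too, and which cells gave it was not tested. No gene of any list passed the adjusted threshold. Of 13 tested genes of the basal layer and its anchorage, 12 had positive values with a median of 0.32, beside 0.09 over all probes, and none passed at an unadjusted p under 0.05. The per-calf medians were 0.79, 0.59, 0.03 and -0.11 in calves 21, 23, 24 and 25. Without calf 21 the median was 0.11. COL7A1, the collagen of anchoring fibrils, read -5.64 to -4.13 on the control diet, with 2 of 4 arrays above background, and -4.78 to -2.28 on WP, with all 4 above, so no exact difference is given. DST, a plakin that ties keratin to hemidesmosomes, gave 0.42 ± 0.46 and CAV1, the caveolar protein, 0.61 ± 0.94 (SD, n = 4), each higher in 3 of 4 calves.

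Of 14 tested genes of the suprabasal and cornified layer, 13 had negative values, as did KRT36 and KRT78 but not KRT10. The median was -0.93, and 4 had an unadjusted p under 0.05, beside 35.6% negative and 179 of 10236 lower at that p over all probes. For the 14 tested genes the median was -0.61 without calf 24. Over all 24 genes of the list with a probe, with no filter and all calves, it was -0.33. The per-calf medians were -1.32, -0.44, -1.22 and -0.02. CALML5, a calcium-binding protein of late differentiation, gave -1.07 ± 0.68, CST6, a protease inhibitor of the cornified layer, -0.76 ± 0.47 and SPINK5, an inhibitor of desquamation proteases, -0.94 ± 0.68 (SD, n = 4). These 3 of the 14 were lower on WP in 4 of 4 calves, against 5.41% of all probes, and their limma adjusted p was 0.658.

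Among 12 tested genes that attach keratin to desmosomes, 6 were negative and 6 positive, with a median of 0.01. DSC2, a desmosomal cadherin, gave -0.44 ± 0.43 and DSG2, another, 0.40 ± 0.51 (SD, n = 4). Of 8 genes listed for keratin fibre binding or assembly, 6 were positive, with a median of 0.13. Over all probes 6591 of 10236 were positive, with a median of 0.09. KRTCAP2, in the list by its name and with another known role, is 1 of the 6. SFN, the 14-3-3 sigma protein that binds keratins, gave -0.38 ± 0.20 (SD, n = 4), with a limma unadjusted p of 0.031 and adjusted p of 0.658. It was lower in 4 of 4 calves, 1 of the 8 genes against 5.41% of all probes. TCHP, which binds keratin filaments, gave 0.35 ± 0.31 (SD, n = 4). KRTCAP2, named as a keratinocyte-associated protein and known as a subunit of the N-glycosylation complex, gave 0.54 ± 0.82 (SD, n = 4). The KRTCAP2 value was 1.67 in calf 24 and 0.17 without that calf.

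Of 20 epithelial differentiation factors, 14 were positive with a median of 0.11, beside 6591 of 10236 positive and a median of 0.09 over all probes. The Notch ligand JAG1 gave 0.82 ± 0.87 and the Notch target HEY1 0.74 ± 0.79 (SD, n = 4), each higher in 3 of 4 calves. MAF, a transcription factor of keratinocyte differentiation, gave 0.61 ± 0.65 (SD, n = 4) and was higher in 4 of 4. It was 1 of 4 such genes among the 20, against 12% of all probes. The MAF value rests in large part on calf 24, at 1.58 against 0.19 to 0.36 in the others, and was 0.28 without calf 24. Without that calf JAG1 gave 0.59 and HEY1 0.53. Of 12 proliferation genes, 11 were negative with a median of -0.34, and -0.13 without calf 24. The per-calf medians were -0.20, 0.12, -0.72 and -0.31. The replication helicase subunits MCM3, MCM6 and MCM4 gave -0.60 ± 0.33, -0.34 ± 0.23 and -0.27 ± 0.17 (SD, n = 4), each lower in 4 of 4 calves. These were 3 of 12 in the list, against 5.41% of all probes. The genes named from a list are those of smallest p, a choice that favours values going the same way in all calves.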

How the data were processed

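Per the labels, Cy3-labelled cRNA from 500 ng of total RNA was hybridised to 8 one-colour arrays. The deposited scanner files hold spot intensity, already corrected for background by Agilent's Feature Extraction software, version 11.0.1.1 in the headers and 9.5 in the submitters' processing notes. A value table that the authors deposited is on the log2 scale. Compared with the scanner files, its values were log2 processed signal minus 1 constant per array (slopes 0.99998 to 1.00, medians -3.08 to -2.27), so scale and direction were settled, with no centring by gene.

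Control spots (536) and outlier-flagged spots (97) were left out and each array's 75th percentile was subtracted from log2 processed signal. The 10236 of 15008 probes that were well above background on 4 or more of the 8 arrays were tested with limma 3.58.1 in R 4.3.3, two-sided, with calf as a block, and adjusted by Benjamini-Hochberg. The number of arrays limits the precision. SD is over within-calf differences and SE is from the fit. The pairing comes from the labels and the cross-over. Across probes, the residuals from the diet means of the pair of arrays of one animal had r of 0.0090, 0.195, 0.060 and 0.048 in calves 21, 23, 24 and 25.

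Members and lists were chosen with earlier results of these data known. Text names the members, every other keratin tested, the 3 genes of smallest p per list, and the 3 genes most like each keratin group. Names came from RefSeq (ARS-UCD2.0, names only): 11194 probes by accession, 3085 by symbol, 729 kept the design's name. Summed marker levels are log2 of the summed signal. The fit was tested on simulated data. Alternatives were background correction, scaling, filter, block, slide row, prior, calves left out and the authors' table. Slide row contrasts, calf ranges, pair differences and the fit without 1 array were added after seeing the data.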

Additional observations from a re-analysis of the deposited data

Results flagged for a closer look

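In 120 groups of 4 values checked for a single value far from the other 3, 6 were found, and chance flags about 1 in 20. The KRT15 control level of calf 21 was 5.84, against 6.59 to 6.68 in the other calves. The KRT10 WP level of calf 25 was 0.65, against -0.90 to -0.66. The KRT79 WP level of calf 23 was 2.04, against 2.29 to 2.33. On the WP array of calf 24, the array with raised control spots, KRT24 read -3.26 against -6.39 to -6.08, and KRTCAP2 read -2.12 against -3.88 to -3.59. The MAF diet difference of calf 24 was 1.58, against 0.19 to 0.36 in the others.

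KRT5 and KRT15 were higher on WP in both of calves 21 and 23 and lower in both of calves 24 and 25. This difference between the calf pairs is the same value as row 1 minus row 2 of the slide, 0.58 for KRT5 and 0.38 for KRT15, with limma adjusted p of 0.285 and 0.357.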

How the results depend on the processing

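Between the diets, no probe passed the adjusted threshold in any alternative, and 715 passed at an unadjusted p under 0.05 (536 higher, 179 lower on WP). The split moved with the scaling, to 192 and 336 with quantile and 265 and 410 with cyclic loess scaling, where the median of all probes was -0.02 and 0.00 in place of 0.09. It was 1134 and 293 with normexp background correction, 802 and 101 without a filter, 668 and 349 with slide row added, 355 and 109 within row 2, 445 and 260 with a trended robust prior, and 411 and 69, 422 and 122, 264 and 165, and 714 and 221 without calves 21, 23, 24 and 25. Without the pairing by calf (no replicate block) no probe passed the adjusted threshold either, with 599 higher and 186 lower at unadjusted p, and the block changed no call of a keratin. A mean over probes of a gene was not run, since each member has 1 probe.

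Signs turned as follows, none of them of a called value, and the cause was not tested. Within a slide row the WP and control arrays come from different calves. The values within a row thus hold the difference between calves as well as that between diets. Within row 1, KRT10 was -0.38, KRT5 0.15, KRT78 0.031, KRT18 -0.22, KRT6B 0.067, KRT8 -0.093, KRT86 0.25 and TCHP -0.089. Within row 2, KRT36 was 4.65, KRT3 0.0041 and KRT75 0.013. With quantile scaling DSG2 was -0.11, DST -0.13, KRT7 -0.17 and KRT86 0.025, and with cyclic loess KRT7 was -0.015, KRT8 -0.00073 and KRT86 0.0028. With normexp KRT24 was 0.054, KRT3 0.012, KRT80 0.092 and KRT85 0.053, and the row difference of KRT80 was 0.079. With the authors' table KRT78 was 0.22. Without the WP array of calf 24, KRT5 was 0.16, KRT75 0.034, KRT8 -0.051 and KRT86 0.19. Leaving out 1 calf at a time gave -0.23 to 0.18 for KRT5, -0.013 to 0.32 for KRT15, -0.016 to 0.15 for KRT19, -0.15 to 0.0087 for KRT6B, -0.25 to 0.41 for KRT7, -0.53 to 0.034 for KRT75, -0.037 to 0.17 for KRT79, -0.051 to 0.16 for KRT8 and -0.26 to 0.24 for KRT86.

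Compared between different calves, the suprabasal median was -0.54 within row 1 and 0.88 within row 2, where the suprabasal minus basal difference was 1.22. Row 2 holds the WP array of calf 24, which had no KRT78 value for that difference. With 1 calf left out that difference was -0.18 to 0.76, the suprabasal median -0.25 to 0.39 and the basal median -0.37 to -0.07. The suprabasal median was also negative with quantile and cyclic loess scaling, at -0.035 and -0.023. The median of the other keratins was 0.46 with no filter and -0.17 to -0.011 with 1 calf left out. Dim probes (KRT4, KRT24, KRT36 in calf 23) carry the least reliable values.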
